A study of Mus musculus with 8 samples.

Results

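The urea cycle and the breakdown of amino acids in liver were followed through 39 genes, listed by name for their known roles. The list was chosen with earlier results of these data known, so it is not independent of them. Of the 39, 35 had at least 1 probe set (a group of array probes read as 1 value) annotated to a single gene, and these 35 genes are the members described here. They held 50 probe sets, and all 50 passed the filter on dim values, among 27022 probe sets of 12949 genes that passed it in the whole array set. For Gls2, Sds, Sdsl and Amt no such probe set was found, so they were not analysed here, and 1 further probe set of Ass1 that is annotated to several genes was left out. The 39 genes fall into 10 groups by role, which are the urea cycle, glutamine, tyrosine, tryptophan, histidine, serine and glycine, proline and ornithine, the transaminases, branched-chain amino acids and lysine, and cysteine.

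Expression was measured by Affymetrix arrays in the liver of male Pemt-/- mice and male Pemt+/+ mice, all on a diet high in fat and sucrose (HFHS). Pemt encodes phosphatidylethanolamine N-methyltransferase, a liver enzyme that makes phosphatidylcholine, and the knockout mice lack it in every tissue. The 8 arrays were 4 of Pemt-/- liver and 4 of Pemt+/+ liver, with 1 array per genotype after 1, 2, 3 and 4 weeks of the diet. There was no group on another diet, and the age of the mice was not given for these arrays. The study's methods give 4 Pemt-/- and 4 Pemt+/+ mice, sampled over the 4 weeks. The labels do not say whether mice were hybridised singly or pooled. With 1 array per genotype and week, the spread between mice within a week could not be estimated. The p-values of the genotype difference set it against how far that difference varied from week to week. Precision is limited by how few arrays there were.

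When amino acids are broken down, their nitrogen is released as ammonia or passed on by transaminases, and periportal hepatocytes turn it into urea through carbamoyl phosphate, citrulline, argininosuccinate and arginine. Ammonia that escapes is bound by glutamine synthetase in the hepatocytes around the central vein. Each carbon skeleton then has its own route, and many of the first enzymes, such as those for tyrosine, tryptophan and histidine, are found mainly in liver.

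Values are intensities on a linear scale as the authors deposited them, and 1 probe set's level is not set against another's. The sums given below for lists of markers add probe sets of unlike brightness, so the brightest ones weigh most in them. Differences are Pemt-/- minus Pemt+/+ on the log2(intensity + 16) scale, which understates changes of dim probe sets, and are given with the standard error (SE) of a limma fit that holds the week as a block. A gene was called lower or higher when its Benjamini-Hochberg adjusted p over all 27022 probe sets was under 0.05, and is read through its probe set with the highest mean unless another is named. As a check of the labels, Pemt itself had intensities of 237, 203, 201 and 255 in Pemt-/- liver at weeks 1, 2, 3 and 4, against 5491, 4989, 5645 and 6045 in Pemt+/+ liver, a 23.2-fold fall (limma, adjusted p = 5.00e-07).

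The knockout livers also differed in their markers of cell types. The 10 measured hepatocyte markers, albumin among them, were bright on every array, with summed intensities of 354475 to 432604 in Pemt-/- liver and 477096 to 512663 in Pemt+/+ liver, and 9 of 10 were called lower with a median log2 difference of -0.39. Macrophage markers summed to 30633 to 43690 in Pemt-/- liver and 12568 to 18408 in Pemt+/+ liver. Of these 12 markers 9 were called higher and 0 lower, and 2 lay below 0, the lowest at -0.57. Stellate cell and matrix markers summed to 40337 to 57764 in Pemt-/- liver and 14112 to 19854 in Pemt+/+ liver, with 9 of 9 called higher. No marker on these lists was at 0 on any array. Of 6 endothelial markers 0 were called higher and 2 lower, and of 5 cholangiocyte markers 1 was called higher and 0 lower. In bulk liver, fewer hepatocytes and less RNA per hepatocyte cannot be told apart, and the part that cell makeup has in the differences below was not tested.

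The genes of nitrogen disposal and amino acid breakdown were mostly lower in Pemt-/- liver. By limma, 22 of the 35 members were called lower, 0 were called higher and 13 were not called, against a background of 7.51% of all genes called lower and 12.6% called higher. At an unadjusted p under 0.05 the counts were 28 lower and 1 higher, the 1 being Gpt2, where 15.1% of all genes were lower and 21% higher by the same rule. The median log2 difference of the members was -0.53, a 1.44-fold fall, whereas the median of all 12949 genes was 0.02, and 31 of the 35 members lay below 0. All 4 Pemt-/- values were below all 4 Pemt+/+ values for 15 members, where 10.4% of all genes had that order, and for 0 members were they all above, where 15.2% of all genes had it. Genes with bright probe sets were more often lower in the whole table too: of the 1295 genes in the brightest 10%, 32.8% were called lower and 6.95% higher with a median of -0.20, and of the 23 members among them 17 were called lower with a median of -0.60.

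These counts rest on few arrays. Without week 1, 2, 3 or 4 the number of members called lower was 11, 28, 6 or 8, and it was 4 (Tdo2, Kmo, Haao and Uroc1) when the limma fit did not let the variance depend on intensity, while the median stayed between -0.64 and -0.45 with any week left out. With quantile normalization of the arrays the median of the members was -0.33, 15 were called lower and 1, Gpt2, was called higher. Where each array was centred on the median of the probe sets kept, a setting added after the data were seen, 27 members were called lower, and the share of calls over all genes that were higher moved to 38.9%, against 62.8% as fitted here, with the median of all genes at -0.14.

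**Figure D1:**
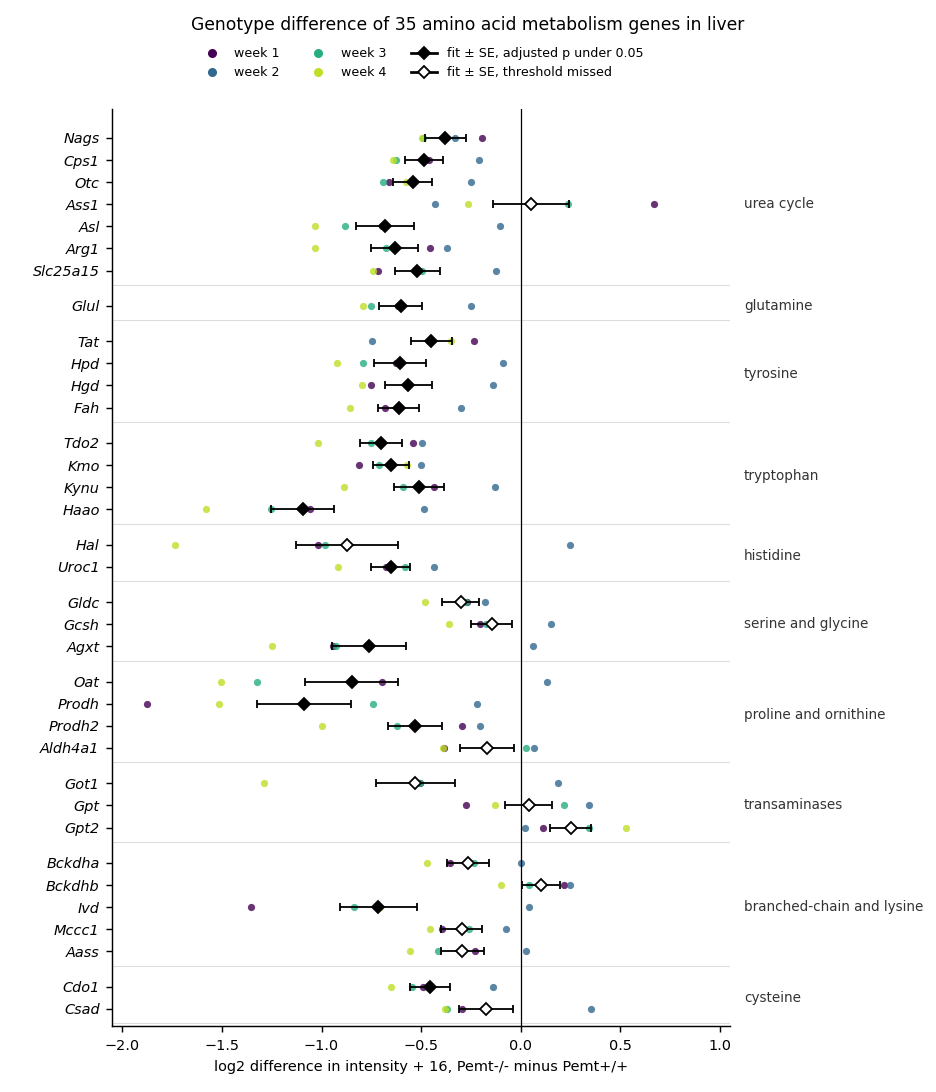
Differences of the 35 members in 10 role groups, with 1 row per gene and the log2 difference in intensity + 16 (Pemt-/- minus Pemt+/+) on the horizontal axis. Coloured points are the single weeks, some of them hidden under the diamonds, and diamonds with bars are the limma fit ± SE over 4 weeks, filled for the 22 members called lower and open for the 13 that missed the threshold; 31 of the 35 diamonds lie left of 0.

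Along the urea cycle 6 of the 7 members were called lower. Nags makes N-acetylglutamate, the activator that carbamoyl phosphate synthetase requires. It had intensities of 1365, 1507, 1408 and 1236 in Pemt-/- liver at weeks 1 to 4, against 1565, 1897, 1986 and 1753 in Pemt+/+ liver (log2 difference -0.38 ± 0.10, SE, adjusted p = 0.0386). Cps1 is the mitochondrial synthetase of carbamoyl phosphate and the entry step of the cycle. It had 30867, 39331, 31215 and 27825 in Pemt-/- liver and 42434, 45549, 48233 and 43397 in Pemt+/+ liver, a 1.40-fold fall (-0.48 ± 0.10, adjusted p = 0.0111). For both genes every knockout array was below every wild-type array. Otc, which joins carbamoyl phosphate to ornithine to give citrulline, was read by 3 probe sets, and all 3 were called lower. The brightest had 16500.1, 21114, 17025 and 15695 in Pemt-/- liver and 26082, 25110.1, 27468 and 23374 in Pemt+/+ liver, again without overlap (-0.54 ± 0.10, adjusted p = 0.00755). The other probe sets of Otc gave -0.68 ± 0.09 without overlap and -0.64 ± 0.19 with overlap. The call of the last was lost without week 1, 3 or 4 (adjusted p of 0.0955 to 0.158). It was also lost with no filter on dim values, without the week block, with median centring, with a pseudocount of 1 and without the trend on intensity (0.0518 to 0.102).

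Of the later steps, Asl, Arg1 and Slc25a15 were called lower and Ass1 was not. Asl is the lyase that releases arginine and fumarate. It had 5767, 10324, 6733 and 4458 in Pemt-/- liver against 9373, 11117, 12437 and 9152 in Pemt+/+ liver (-0.68 ± 0.14, adjusted p = 0.0147). The week 2 knockout value lay inside the wild-type range. Arg1 is the arginase that splits arginine into urea and ornithine. It had 21392, 26024, 21256 and 15853 in Pemt-/- liver against 29355, 33619, 34034 and 32419.6 in Pemt+/+ liver with no overlap, a 1.55-fold fall (-0.63 ± 0.12, adjusted p = 0.00824). Slc25a15 carries ornithine into mitochondria. It had 10983, 18068, 14172 and 11071 in Pemt-/- liver against 18031, 19728, 19994 and 18503 in Pemt+/+ liver (-0.52 ± 0.11, adjusted p = 0.0169). In that gene the genotypes overlapped through week 2 of the knockout, and its dimmer probe set, at -0.25 ± 0.13, was not called (adjusted p = 0.223). Ass1, the synthetase of argininosuccinate, had 574, 202, 337 and 489.5 in Pemt-/- liver and 355, 277, 284 and 591 in Pemt+/+ liver, with a 95% interval of the log2 difference from -0.38 to 0.49 and an adjusted p of 0.883. It could be read only through this 1 probe set, which was dim, at 202 to 591, and varied between weeks in both genotypes. How well this probe set reads Ass1 was not tested, so the value describes the probe set. Leaving out week 3 removed all 6 calls of the cycle (adjusted p of 0.0503 to 0.184), week 4 removed those of Nags, Cps1, Asl and Slc25a15 (0.0643 to 0.172), week 1 those of Asl and Slc25a15 (0.0641 and 0.0794) and week 2 that of Nags (0.0563). With quantile normalization the differences of Cps1 and Slc25a15 were -0.16 and -0.32 and were not called (adjusted p = 0.137 and 0.0686), while those of Otc and Arg1 were -0.30 and -0.36 and were called. With each array centred on its median Nags was not called (0.0513).

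Glutamine synthetase, encoded by Glul, binds ammonia in the pericentral hepatocytes. Its brighter probe set had 11526, 17818, 11004 and 12029 in Pemt-/- liver and 17675, 21186, 18569 and 20874 in Pemt+/+ liver (-0.60 ± 0.11, adjusted p = 0.00721). The week 2 knockout value was just inside the wild-type range, and the call was lost without week 3 (adjusted p = 0.0525). With quantile normalization the difference was -0.39, still called. The second probe set of Glul had 3319, 4326, 2515 and 2646 in Pemt-/- liver against 6423, 7755, 6936 and 7563 in Pemt+/+ liver, which was a 2.28-fold fall without overlap (-1.19 ± 0.13, adjusted p = 0.00128). Both probe sets were called, but the size of the fall differed between them. Among the other pericentral markers 4 of 9 were called lower and 0 higher, including Cyp1a2 at -0.85, and among the periportal markers 4 of 9 were called lower and 2 higher, including Aldh1b1 at 1.08. A difference between the zones was not tested.

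**Figure D2:**
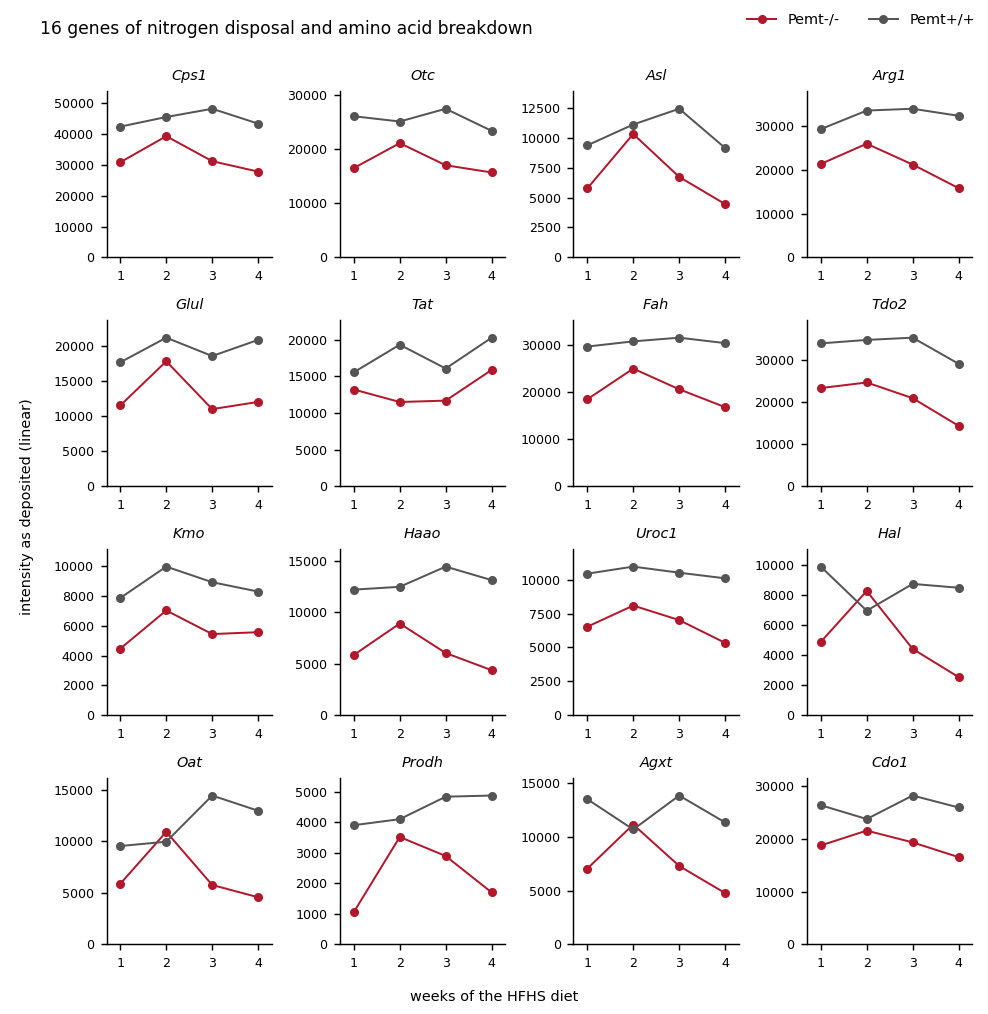
Deposited intensity (linear axis from 0) against weeks of the HFHS diet for 16 members, with 1 array per point, Pemt-/- in red and Pemt+/+ in grey. The red line lies below the grey one at all 4 weeks for 13 of the 16 genes and crosses it at week 2 for Hal, Oat and Agxt. The 16 are a selection: all but Hal were called lower, and no transaminase or branched-chain member is shown. Of all 35 members, 22 were lower at all 4 weeks.

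All 4 members of tyrosine breakdown were called lower. Tat, the tyrosine aminotransferase, is a classic target of glucocorticoids and the first step of the route. It had 13192, 11489.8, 11677 and 15863 in Pemt-/- liver and 15539.9, 19299, 16053 and 20257 in Pemt+/+ liver (-0.45 ± 0.10, adjusted p = 0.0186). Its highest knockout value, at week 4, exceeded the lowest wild-type value, at week 1, although at each week the knockout array was the lower of the pair. Hpd makes homogentisate and had 26449.7, 38309, 27229.9 and 20966 in Pemt-/- liver against 40799, 40729.9, 47215 and 39757 in Pemt+/+ liver without overlap (-0.61 ± 0.13, adjusted p = 0.0163). Hgd, which opens the ring of homogentisate, had 15739, 25061, 19262 and 14171 in Pemt-/- liver against 26508, 27622, 28554 and 24626 in Pemt+/+ liver, overlapping at week 2 (-0.56 ± 0.12, adjusted p = 0.0135). Its dim second probe set at 0.09 ± 0.20 was not called (adjusted p = 0.809). Fah is the last enzyme of the route, and its loss causes hereditary tyrosinaemia. It had 18529.6, 25075, 20671 and 16855 in Pemt-/- liver against 29773, 30878, 31664 and 30507 in Pemt+/+ liver without overlap, a 1.53-fold fall (-0.61 ± 0.10, adjusted p = 0.0058). Its call held with any week left out (adjusted p up to 0.0381). Those of Tat, Hpd and Hgd were lost without week 3 (0.0690 to 0.0964) and without week 4 (0.0594 to 0.0751), and those of Hpd and Hgd without week 1 too (0.0686 and 0.0711). With quantile normalization Tat, Hpd and Hgd were not called, at -0.25, -0.28 and -0.32 (adjusted p = 0.152, 0.0944 and 0.0671), and Fah was called at -0.34. With the mean of its probe sets Hgd was at -0.24 and not called (0.193).

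All 4 members of the kynurenine route of tryptophan breakdown were called lower, 3 of them with any week left out. Tdo2 is the dioxygenase that commits tryptophan to this route. It had 23272, 24599, 20884 and 14319 in Pemt-/- liver and 33861, 34682, 35214 and 29026 in Pemt+/+ liver, a 1.63-fold fall (-0.70 ± 0.10, adjusted p = 0.00342). Its other probe sets fell by 1.01 and 0.97 on the log2 scale, also with every knockout array below every wild-type array. Kmo, which hydroxylates kynurenine, had 4466, 7025, 5440.4 and 5568 in Pemt-/- liver against 7863, 9964, 8919 and 8289 in Pemt+/+ liver, without overlap (-0.65 ± 0.09, adjusted p = 0.00275). Haao acts further down, on the way to quinolinate and NAD. It had the lowest difference of the 35 members next to Prodh, with 5845, 8895, 6031 and 4366 in Pemt-/- liver against 12179, 12454, 14412 and 13102 in Pemt+/+ liver and no overlap (a 2.14-fold fall, -1.09 ± 0.16, adjusted p = 0.00305). Tdo2, Kmo and Haao were called with any of the 4 weeks left out (adjusted p up to 0.0271), and the difference of Tdo2 was -0.43, still called, with quantile normalization. Kynu, the kynureninase between Kmo and Haao, had 3614, 4406, 3509 and 2217 in Pemt-/- liver against 4889, 4826, 5295 and 4117 in Pemt+/+ liver and overlapped where the knockout at week 2 exceeded the wild type at week 4 (-0.51 ± 0.13, adjusted p = 0.0263). Its call was kept only without week 2 when a week was left out (adjusted p of 0.0740 to 0.122 without the others) and was lost without the week block (0.0707). The dimmer probe set of Kynu, which fell by 0.82 (adjusted p = 0.0139), lost its call without week 1, 3 or 4 and without the block (0.0524 to 0.0988).

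In histidine breakdown, Hal and Uroc1 act in succession, Hal by removing ammonia to give urocanate and Uroc1 by hydrating urocanate. Uroc1 had 6524, 8086, 7014 and 5336 in Pemt-/- liver against 10436, 10957, 10508 and 10092 in Pemt+/+ liver without overlap (-0.65 ± 0.10, adjusted p = 0.00388), and was called with any week left out (adjusted p up to 0.0237). A dimmer probe set of Uroc1 gave -0.47 ± 0.16 and was not called (adjusted p = 0.0783). Hal had 4895, 8295, 4429 and 2547 in Pemt-/- liver against 9924, 6981, 8769 and 8513 in Pemt+/+ liver. At week 2 the knockout array was the higher of the pair and at week 4 it held 0.299 of the wild-type intensity. Hal narrowly missed the threshold with -0.87 ± 0.26 (adjusted p = 0.0502), a call it gained without week 2 (0.00175), without the week block (0.0491), with the filter at the 60th percentile (0.0440), with a pseudocount of 64 (0.0459) and with centring on the probe sets kept (0.0298).

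For the genes whose lower values held with any week left out, the 250 bases before the transcription start are shown where RefSeq (GRCm38.p6) gives a promoter that lies wholly before the gene's annotated start, and Hal is added because its promoter carries a match to a C/EBP-like motif. Promoters were found for 30 of the 39 listed genes, 29 of them measured. Capitals mark matches, on either strand, to TTGCNNAA (C/EBP-like), CAAAGTCCA or CAAAGGTCA (HNF4-like) and TGACGT, and a promoter wholly in lower case has none of them.
Tdo2 (chr3:81975729-81975978, minus strand): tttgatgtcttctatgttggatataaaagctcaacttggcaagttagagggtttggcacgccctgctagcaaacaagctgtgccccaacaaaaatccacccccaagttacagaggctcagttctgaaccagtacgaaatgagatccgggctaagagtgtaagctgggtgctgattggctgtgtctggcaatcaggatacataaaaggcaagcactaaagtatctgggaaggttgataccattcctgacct
Kmo (chr1:175631943-175632192, plus strand): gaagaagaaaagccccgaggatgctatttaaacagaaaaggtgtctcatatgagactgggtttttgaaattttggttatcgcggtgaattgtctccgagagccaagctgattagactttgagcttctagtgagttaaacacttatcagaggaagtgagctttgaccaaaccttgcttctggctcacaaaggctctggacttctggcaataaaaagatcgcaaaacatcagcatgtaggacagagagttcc
Fah (chr7:84605943-84606192, minus strand): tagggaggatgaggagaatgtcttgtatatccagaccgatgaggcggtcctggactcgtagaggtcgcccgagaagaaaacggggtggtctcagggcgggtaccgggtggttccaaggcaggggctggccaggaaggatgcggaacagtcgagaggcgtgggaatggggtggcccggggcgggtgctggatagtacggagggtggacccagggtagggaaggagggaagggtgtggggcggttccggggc
Hal (chr10:93488518-93488767, plus strand): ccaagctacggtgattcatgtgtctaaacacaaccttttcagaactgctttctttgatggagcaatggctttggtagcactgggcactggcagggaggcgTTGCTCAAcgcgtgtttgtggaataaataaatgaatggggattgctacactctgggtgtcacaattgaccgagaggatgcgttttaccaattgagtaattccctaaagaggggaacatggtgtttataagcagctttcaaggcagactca

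The motif TTGCNNAA was present in 4 of the 29 member promoters (13.8%), those of Hal, Hgd, Prodh2 and Aass, and in 9.55% of all 27025 promoters of this length, or 7.73% of those of the 10433 measured genes. TGTTCT, a short element of the glucocorticoid receptor, was present in those of Agxt, Bckdhb and Haao (10.3%, against 16.2% of all promoters and 11.1% of those of measured genes). The cAMP response element TGACGTCA was in 0 members (1.62% of all and 2.56% of measured genes) and its shorter form TGACGT, which lies within it, in Aass and Csad (6.90%, against 6.56% of all and 9.66% of measured genes). The HNF4-like motifs were in 0 members and in 0.788% of all promoters and 0.690% of those of measured genes. These counts use all 29 promoters, also those that lie partly or wholly within the annotated gene. Those of Tat, Hgd and Haao lie wholly within it. A match of letters describes the sequence and not a bound site.

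Of the 6 listed genes of serine and glycine breakdown 3 were measured. Agxt is the peroxisomal enzyme that detoxifies glyoxylate with alanine as the amino donor. It had 7040.0, 11162, 7294 and 4765 in Pemt-/- liver and 13526, 10698, 13864 and 11353 in Pemt+/+ liver (-0.76 ± 0.19, adjusted p = 0.0253). Its knockout array was the higher of the pair at week 2 and the lower at weeks 1, 3 and 4, and the call was lost without week 1, 3 or 4 (adjusted p of 0.102 to 0.108). Gldc and Gcsh encode the P and H proteins of the glycine cleavage system and were not called, at -0.30 ± 0.09 (adjusted p = 0.0585) and -0.15 ± 0.10 (adjusted p = 0.375). For Gldc the 4 knockout values, 3809, 3749, 3864 and 2943, were nevertheless all below the wild-type values of 4599, 4251, 4671 and 4110.3, and Gldc passed the threshold without week 2 (0.0465), with the filter at the 60th percentile (0.0490) and with centring on the probe sets kept (0.0199).

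In the routes of proline and ornithine 3 of 4 members were called lower. Oat turns ornithine into a precursor of glutamate and proline. It had 5880.5, 10939.6, 5764 and 4569 in Pemt-/- liver against 9558, 9979, 14475 and 12992 in Pemt+/+ liver (-0.85 ± 0.23, adjusted p = 0.0389), and at week 2 the knockout value was above the wild-type one. Prodh, the mitochondrial proline dehydrogenase, had 1049.7, 3515, 2890.5 and 1697 in Pemt-/- liver against 3902, 4099, 4837 and 4874 in Pemt+/+ liver, a 2.13-fold fall without overlap (-1.09 ± 0.24, adjusted p = 0.0164). Prodh2, a related enzyme that oxidises hydroxyproline, had 3185, 3526, 2469 and 1926 in Pemt-/- liver against 3914, 4067, 3808 and 3863 in Pemt+/+ liver, also without overlap (-0.53 ± 0.14, adjusted p = 0.0311). Aldh4a1 takes the product of Prodh on to glutamate and was not called (-0.17 ± 0.14, adjusted p = 0.437), with an interval from -0.48 to 0.14. Without week 1 or week 4 none of the 3 was called (adjusted p of 0.0576 to 0.107 and 0.0668 to 0.144), and without week 3 the calls of Oat and Prodh2 were lost (0.131 and 0.160). Oat was also not called with quantile normalization, with no filter or with the mean of its probe sets (0.0526 to 0.0658).

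None of the 3 transaminases was called through its brightest probe set. Got1, the cytosolic aspartate aminotransferase, had 2564, 4283, 2547 and 1548 in Pemt-/- liver and 3645, 3768, 3623 and 3805 in Pemt+/+ liver, and at -0.53 ± 0.20 it was not called (adjusted p = 0.105), although it passed without week 2 (0.0163). The knockout values spanned a wide range from the highest at week 2 to the lowest at week 4, around wild-type values that hardly moved. Gpt, the cytosolic alanine aminotransferase, differed by 0.04 ± 0.12 (interval from -0.23 to 0.31, adjusted p = 0.859) and its dimmer probe set by -0.47 ± 0.19 (adjusted p = 0.123), so the 2 lay on different sides of 0 and neither was called.

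Gpt2, the mitochondrial alanine aminotransferase, had a difference above 0 in each of its 4 probe sets. The brightest had 11237, 13805, 16778 and 17735 in Pemt-/- liver and 10408, 13588, 13256 and 12315 in Pemt+/+ liver with overlap, and was not called (0.25 ± 0.10, adjusted p = 0.137). The next had 7529, 7758, 10165 and 10478 in Pemt-/- liver against 4941, 6323, 5790.4 and 5448 in Pemt+/+ liver, with all knockout arrays above all wild-type arrays, and was called higher (1.58-fold, 0.66 ± 0.12, adjusted p = 0.0069), also with any week left out (adjusted p up to 0.0466). The probe set after that had 2964, 2881, 4150.3 and 4432 in Pemt-/- liver against 1939.8, 2555, 2019.7 and 2220.0 in Pemt+/+ liver (0.70 ± 0.15, adjusted p = 0.0141) and lost the call without week 1, 3 or 4 (0.0513 to 0.0788). The dimmest was not called (0.38 ± 0.15, adjusted p = 0.122) although its groups did not overlap. The call of the probe set at 0.70 and that of the one at 0.66 were also lost in the fit without the trend on intensity (0.0676 and 0.0506). With quantile normalization (0.44, adjusted p = 0.0347), or with the mean of its probe sets (0.50, adjusted p = 0.0342), Gpt2 was the 1 member called higher.

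**Figure D3:**
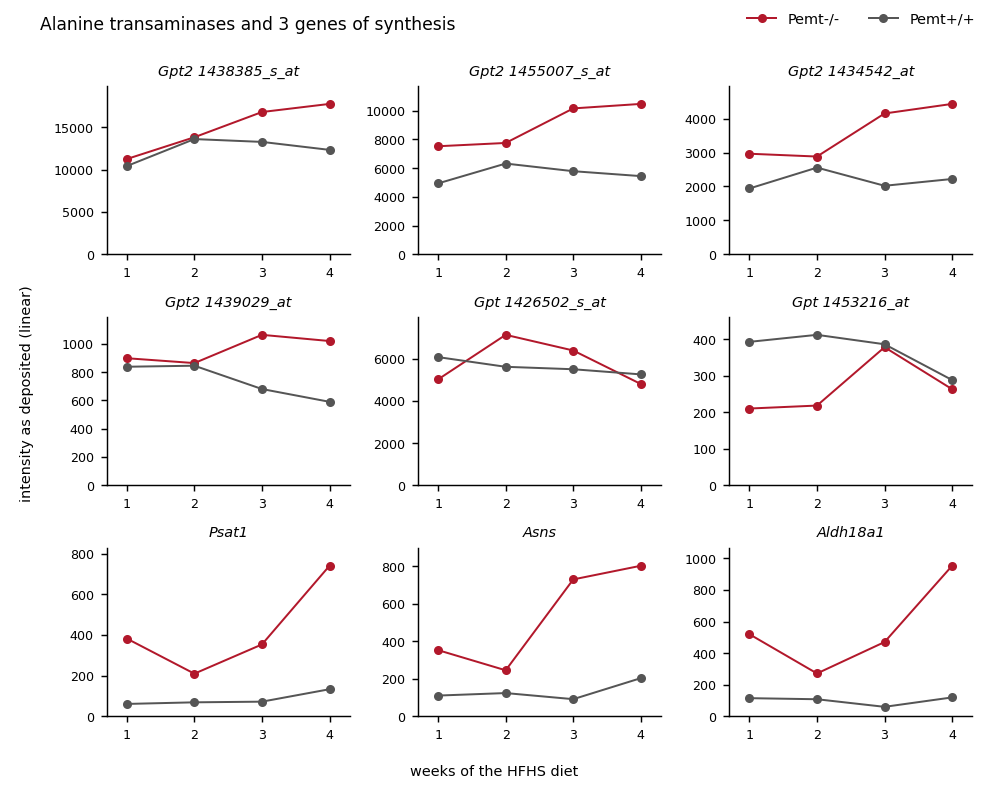
Deposited intensity (linear axis from 0) against weeks of the HFHS diet, Pemt-/- in red and Pemt+/+ in grey, 1 array per point, for the 4 probe sets of Gpt2, the 2 of Gpt, and Psat1, Asns and Aldh18a1. The red line lies above the grey one at every week in all 4 Gpt2 panels and in the panels of Psat1, Asns and Aldh18a1, and the lines cross in the brighter Gpt panel.

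Breakdown of branched-chain amino acids and lysine gave 1 call among 5 members. Ivd is the isovaleryl-CoA dehydrogenase of leucine breakdown. It had 1588, 2958, 2027 and 1763 in Pemt-/- liver against 4085, 2875, 3633 and 2889 in Pemt+/+ liver, overlapping at week 2 (-0.71 ± 0.19, adjusted p = 0.0361), and its second probe set fell by 0.74 without overlap (adjusted p = 0.0105). The first call was lost without week 1, 3 or 4 (adjusted p of 0.101 to 0.132). The second was lost without week 1 or 3 (0.0541 and 0.0623) and without the trend on intensity (0.0556). With no filter the first probe set was not called either (0.0567). Bckdha and Bckdhb encode the E1 subunits of the branched-chain ketoacid dehydrogenase, and differed by -0.26 ± 0.10 (adjusted p = 0.12) and 0.10 ± 0.10 (adjusted p = 0.52). Mccc1, a subunit of the leucine-specific carboxylase, differed by -0.30 ± 0.10 (adjusted p = 0.085), and Aass, which starts lysine breakdown, by -0.29 ± 0.11 (adjusted p = 0.102). The 95% intervals of these 4 genes lay between -0.54 and 0.32, and Bckdha, Mccc1 and Aass passed the threshold without week 2 (0.0213 to 0.0465) and with centring on the probe sets kept (0.0279 to 0.0434).

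Of the cysteine genes, Cdo1, the dioxygenase that makes cysteine sulfinate, had 18781, 21607, 19363 and 16559.9 in Pemt-/- liver against 26441, 23805, 28277 and 26003 in Pemt+/+ liver without overlap (-0.46 ± 0.10, adjusted p = 0.0171). Its call was lost without week 1, 3 or 4 (0.0701 to 0.105), and with quantile normalization it was at -0.21 and not called. Csad takes that product towards taurine and was not called (-0.17 ± 0.14, adjusted p = 0.43). Its values were 4716, 2871, 2591 and 1596 in Pemt-/- liver and 5789, 2243, 3353 and 2086 in Pemt+/+ liver, so the highest value of both genotypes was at week 1, and without week 2 Csad was called lower (0.0406).

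The genotype difference was least negative at week 2 for most members. The median log2 difference of the 35 members was -0.49 at week 1, -0.13 at week 2, -0.58 at week 3 and -0.71 at week 4, with 32, 23, 30 and 34 members below 0, while the median of all genes stayed between 0.01 and 0.03. The single weeks hold 1 array per genotype, so these values have no replicate check. An intensity ratio of 0.5 or less was reached by 4 members at week 1, 0 at week 2, 2 at week 3 and 10 at week 4, against 3.7%, 4.83%, 5.17% and 5.67% of all genes, and a ratio of 2 or more was reached by 0 members at any week, against 7.58%, 6.21%, 10.9% and 10.6% of all genes. The 4 at week 1 were Prodh (0.269), Ivd (0.389), Haao (0.480) and Hal (0.493), and those at week 3 were Oat (0.398) and Haao (0.418). At week 4, Hal (0.299), Haao (0.333), Prodh (0.348) and Oat (0.352) had the lowest ratios, ahead of Got1, Agxt, Asl, Arg1, Tdo2 and Prodh2.

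The week 2 value of Pemt-/- liver stood out from the other weeks. Within Pemt-/- liver, 30 of the 35 members had their highest value at week 2, where 24.9% of all genes did, and 26 had their lowest at week 4, where 24.0% of all genes did. In 31 members the difference between genotypes was least negative or most positive at week 2, as it was in 26.7% of all genes. The hepatocyte markers had medians of -0.41, -0.18, -0.51 and -0.47 at weeks 1 to 4, so they too were closest to the wild type at week 2. The week 2 knockout array also differed as a whole. Its 100 brightest probe sets held 10.5% of the summed signal, against 9.01% to 9.22% on the other Pemt-/- arrays and 10.9% to 11.5% on the Pemt+/+ arrays, and its upper quartile of intensity was 384, against 412 to 425 on the other Pemt-/- arrays and 363 to 370 on the Pemt+/+ arrays. The part of this array's signal distribution in the week 2 values was not tested, and with 1 array per genotype and week the array and the week cannot be told apart.

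**Figure D4:**
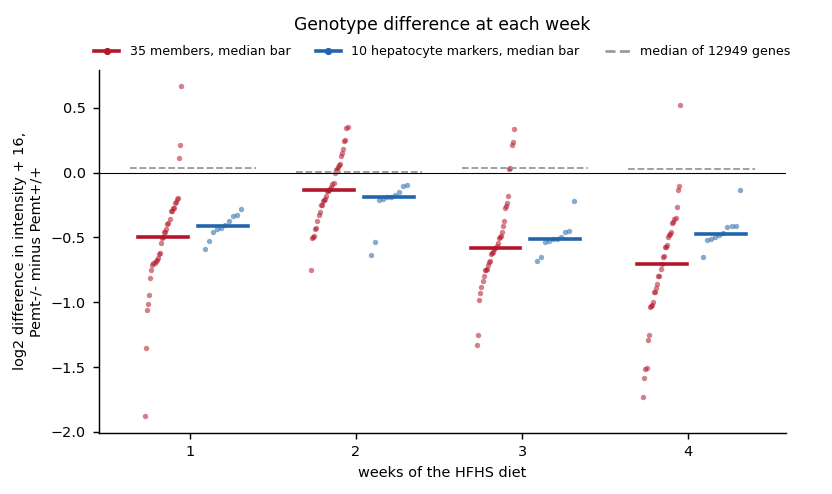
Log2 difference in intensity + 16 (Pemt-/- minus Pemt+/+) against weeks of the HFHS diet, with 1 point per gene for the 35 members (red) and the 10 hepatocyte markers (blue), bars at their medians and a dashed line at the median of all 12949 genes. The member medians are -0.49, -0.13, -0.58 and -0.71 at weeks 1 to 4. At every week the points of the 35 members spread further both down and up than those of the 10 hepatocyte markers, which are fewer.

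Over the 4 weeks no member changed past the threshold in either genotype. By limma, 0 members passed for the difference in change per week between the genotypes, 0 for the change within Pemt-/- liver and 0 within Pemt+/+ liver, and at an unadjusted p under 0.05 the counts were 1, 8 and 1. Over all 12949 genes 0, 17 and 0 passed, and 975, 1559 and 700 had an unadjusted p under 0.05. The differences in change per week of the members ran from -0.39 to 0.16. The fit recovered 67% of simulated differences of 1.2 per week, so changes as small as those of the members could be missed. The median change per week of the members was -0.08 in Pemt-/- liver (29 of 35 below 0) and 0.01 in Pemt+/+ liver (16 of 35 below 0). The 8 with an unadjusted p under 0.05 within Pemt-/- liver were Arg1, Tdo2, Kynu, Hal, Prodh2, Got1 and Csad, downwards, and Gpt2, upwards, with adjusted p from 0.181 upwards. Prodh2 was the 1 for the difference between genotypes, at -0.25 ± 0.09 per week (SE, adjusted p = 0.687). Csad was the 1 within Pemt+/+ liver, at -0.38 per week there and -0.48 in Pemt-/- liver, so it fell in both genotypes (limma, difference -0.10 ± 0.18, adjusted p = 0.965). Within Pemt-/- liver the changes of Hal and Got1 passed without week 1, at -0.85 and -0.73 per week (both adjusted p = 0.0354), and that of Csad without week 2, at -0.51 per week (adjusted p = 0.0271).

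Other enzymes of the same pathways were looked up from a list of 61 genes, of which 50 were tested. Of these, 23 were called lower and 1 higher, with a median log2 difference of -0.40. The fall with the smallest p was that of Aadat, an aminotransferase of kynurenine and alpha-aminoadipate. It had 1938, 2813, 1964 and 1653 in Pemt-/- liver against 3833, 6840.2, 4769 and 4727 in Pemt+/+ liver (-1.26 ± 0.11, adjusted p = 0.000556). Hibadh, a dehydrogenase of valine breakdown, had 14467, 16531, 14146 and 11977 in Pemt-/- liver against 20194, 23928, 23586 and 19506 in Pemt+/+ liver (-0.61 ± 0.09, adjusted p = 0.00278). The 1 rise was in Aldh18a1, which makes precursors of proline and ornithine from glutamate. It had 519, 271, 469.9 and 954 in Pemt-/- liver against 114, 107, 59.1 and 119 in Pemt+/+ liver (2.20 ± 0.26, adjusted p = 0.00157). None of these 3 genes overlapped between the genotypes. Hibadh was at -0.40 with quantile normalization and Aldh18a1 at 1.23 with the mean of its probe sets, both still called.

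Among 4 tested genes that make amino acids, 2 were called higher and 0 lower. Psat1, the aminotransferase of serine synthesis, had 382, 209, 353 and 741 in Pemt-/- liver against 60.2, 68.1, 71.4 and 133 in Pemt+/+ liver (2.06 ± 0.20, adjusted p = 0.00085). Asns, the asparagine synthetase, had 352, 245, 730.1 and 803 in Pemt-/- liver against 110.0, 123, 90.7 and 203 in Pemt+/+ liver (1.79 ± 0.27, adjusted p = 0.00372). For both, and for Aldh18a1, the lowest knockout value was at week 2 and was still above every wild-type value. Phgdh and Psph, the other enzymes of serine synthesis, were not called, at 0.77 ± 0.31 (adjusted p = 0.129) and 0.46 ± 0.17 (adjusted p = 0.108). Both were called higher without week 2 (0.0487 and 0.0126), and Phgdh also with the mean of its probe sets (1.09, adjusted p = 0.0162).

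Amino acid transporters were split. Of 10 tested 2 were called higher and 3 lower, with Slc7a8, a neutral amino acid exchanger, at 1.21 ± 0.16 (adjusted p = 0.00223), and Slc38a3, a transporter of glutamine and histidine, at -0.74 ± 0.14 (adjusted p = 0.00937). Slc43a1, a carrier of large neutral amino acids, was at -0.94 ± 0.20 (adjusted p = 0.0162). The calls of Slc38a3 and Slc43a1 were lost without week 3 (0.0559 and 0.0803), and that of Slc38a3 without week 1 or without the trend on intensity too (0.0528 and 0.0581).

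Among 11 tested regulators of these pathways 6 were called lower and 0 higher. Cebpa, a transcription factor of the C/EBP family required for many liver enzymes, had 1868, 2062, 2144 and 1750.5 in Pemt-/- liver against 3379, 3202, 3631 and 3234 in Pemt+/+ liver (-0.78 ± 0.09, adjusted p = 0.00165). Hnf4a, the nuclear receptor that maintains the hepatocyte programme, had 9658, 8515, 8209 and 6643 in Pemt-/- liver against 12698, 13836, 13017 and 11298 in Pemt+/+ liver (-0.63 ± 0.09, adjusted p = 0.00334). As the study itself followed this gene in these livers, its fall is no independent evidence. Both lay below the wild type without overlap. Klf15, a regulator of amino acid breakdown in fasting, had 1383, 1893, 1083 and 1142 in Pemt-/- liver against 2238, 2845, 1829 and 1596 in Pemt+/+ liver with overlap (-0.62 ± 0.10, adjusted p = 0.00469), and was not called without the week block (0.0550). Whether these regulators bear on the members was not tested.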

How the data were processed

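Liver RNA of 4 Pemt-/- and 4 Pemt+/+ arrays was compared. The intensity of each probe set was used as the authors deposited it, for 45101 probe sets on a linear scale, and all arrays had a trimmed mean of 500.0 (2% trimmed from either end), which shows a common scaling by the authors. Affymetrix Expression Console is named in the submitters' processing notes. Its version is not given in the sources used here, nor is its summary method. Under such scaling, a shift in many bright genes moves all other values of an array.

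The 64 control probe sets were left out. The array annotation gave 1 gene for 34945 of the remaining 45037 probe sets, several for 932 and none here for 9160, and 34741 of the first were matched by Entrez identifier to RefSeq genes of GRCm38.p6. Intensities were taken as log2(intensity + 16). Probe sets with a mean above the 40th percentile (an intensity of 45.5) were kept, which left 27022 probe sets of 12949 genes. Genotype differences came from limma 3.58.1 (R 4.3.3), using lmFit and then eBayes with a trend on intensity. The week was a block because the labels give each genotype 1 array per week. Tests were two-sided. Deviations of the 2 arrays of a week correlated at -0.03 to 0.11. The change per week was a slope within each genotype. Each gene was read through its probe set of the highest mean. Ratios within a week had no test.

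On simulated data of 27022 probe sets with 200 changed, the genotype fit recovered 28% of 2-fold and 79% of 4-fold changes with 3 false calls. The fit of the change per week recovered 67% of slope differences of 1.2 per week, with 6 false calls. The simulated spreads came from the data but were shuffled over probe sets, so they did not follow intensity. These shares therefore need not hold for bright probe sets. The number of arrays limits the precision. Values per array are given for members past a threshold, for the first and last enzymes of a role group with none, and for up to 3 genes of other lists by p; where probe sets of a gene disagreed, all are given. The members, lists and tests were chosen with earlier results of these data known. Alternatives were other filters (none, the 60th percentile), pseudocounts of 1 and 64, quantile normalization, centring on the median, an eBayes fit without the trend, the mean of a gene's probe sets, no week block and each week left out.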

Additional observations from a re-analysis of the deposited data

Results flagged for a closer look

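In 3 of 70 groups of 4 arrays (35 members in 2 genotypes), 1 array stood apart from the other 3 by more of the group's range than Dixon's 95% critical value, which chance gives in about 1 of 20 groups. Glul was at 17818 in Pemt-/- liver at week 2, where the other Pemt-/- arrays held 11004 to 12029. Gldc was at 2943 in Pemt-/- liver at week 4, where the other Pemt-/- arrays held 3749 to 3864. Hpd was at 47215 in Pemt+/+ liver at week 3, where the other Pemt+/+ arrays held 39757 to 40799.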

How the results depend on the processing

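Of the 35 members, none changed the direction of a called difference under any alternative. Members called lower numbered 22, and 6 to 28 with 1 week left out, 4 by eBayes without the intensity trend, and 15 to 27 under all other alternatives. Gpt2 was the 1 member called higher with quantile normalization and with the mean of its probe sets. All genes called for the genotype difference numbered 2610 (972 lower, 1638 higher), and 1332 (334 lower, 998 higher) by eBayes without the trend. With 1 week left out they numbered 1119 to 2881, of which 295 to 1156 were lower and 824 to 1725 higher, from fewer arrays. Centring each array on the median of the probe sets kept, added after seeing the data, gave 1888 lower. Genes called for the change per week within Pemt-/- liver numbered 17 (members 0), and 1 with no filter, 38 with the filter at the 60th percentile, 41 with quantile normalization, 5 with median centring, 3 with centring over the probe sets kept, 7 and 37 with pseudocounts of 1 and 64, 0 by eBayes without the trend, 1 with the mean of a gene's probe sets and 0 to 60 with 1 week left out (members 0 to 2). Within Pemt+/+ liver they numbered 0, and 0 to 2 with 1 week left out. The cause of these shifts was not tested. Without the week block, 2745 genes were called and 22 members were called lower, Hal being gained and Kynu lost, and no other member's call changed. A comparison of protein sequences between paralogs was not run. The design resolves few small changes, since the spread comes from 4 arrays per genotype in different weeks.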
